A study of Mus musculus with 6 samples.

Results

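The cyclins and cyclin-dependent kinases examined here are 10 genes, taken by name from the 34745 genes of the expression table: the D-type cyclins Ccnd1, Ccnd2 and Ccnd3, the E-type cyclins Ccne1 and Ccne2, cyclin A2 (Ccna2), cyclin B1 (Ccnb1), and the kinases Cdk2, Cdk4 and Cdk6. All 10 were found, and all 10 passed the filter on low counts. RNA was sequenced from MLE-12 cells, a mouse lung epithelial line immortalized with the SV40 large T antigen. In 3 libraries the cells carried a plasmid for NR4A1, an orphan nuclear receptor, made by placing the mouse open reading frame in pCMV-SPORT6 behind a viral CMV promoter. In the 3 vector control libraries they carried pCMV-SPORT6 alone, and both groups received Lipofectamine 2000. For the sequenced cells, the time after transfection and the share of cells that took up the plasmid are not given in the sources used here. The labels number the libraries 1 to 3 in each group without saying that they came from separate cultures, so every p-value measures the spread between these libraries, which may be technical.

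Cyclins are unstable regulatory subunits whose levels rise and fall through the cell cycle, and each switches on a kinase that has little activity alone. D-type cyclins accumulate with growth factor signals and act with Cdk4 or Cdk6 to phosphorylate the retinoblastoma protein, which frees E2F transcription factors. E2F then drives Ccne1, Ccne2 and Ccna2, whose products act with Cdk2 at the start of and during DNA replication, and cyclin B1 acts with Cdk1 to bring the cell into mitosis. Large T antigen binds the retinoblastoma protein and its relatives directly, so the first of these steps is altered in any line that carries it.

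NR4A1 binds DNA as a monomer at the NBRE, an octamer with the letters AAAGGTCA, which ends in the nuclear receptor half-site AGGTCA. The RefSeq table of start sites (GRCm38.p6) held 7 windows for 6 of the genes, Ccnb1, Ccne1, Cdk2, Cdk4, Cdk6 and, with 2 start sites, Ccnd3. Entries for Ccnd1, Ccnd2, Ccne2 and Ccna2 were missing. In the 250 bases before each start, on either strand, the half-site occurred in 3 of the 7 windows and in 14.0% of all 32851 windows of that length. The full octamer occurred in 1 of the 7, at the distal start of Ccnd3, and in 1.34% of all windows, and this window is also counted for the half-site that lies within it. The 3 stretches that hold a match are printed because they are the only windows of the set with letters of the overexpressed receptor's site. Each runs 5′ to 3′ on the strand of the gene, stops before the first annotated exon, and has the match in capitals.
Ccnd3, chr17:47504801-47505050, plus strand, 250 bases before the distal start: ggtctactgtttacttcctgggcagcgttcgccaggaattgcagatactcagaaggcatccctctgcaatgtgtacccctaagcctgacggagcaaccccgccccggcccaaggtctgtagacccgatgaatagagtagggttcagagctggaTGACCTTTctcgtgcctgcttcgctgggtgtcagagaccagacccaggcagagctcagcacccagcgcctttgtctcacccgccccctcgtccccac
Cdk4, chr10:127063285-127063533, plus strand: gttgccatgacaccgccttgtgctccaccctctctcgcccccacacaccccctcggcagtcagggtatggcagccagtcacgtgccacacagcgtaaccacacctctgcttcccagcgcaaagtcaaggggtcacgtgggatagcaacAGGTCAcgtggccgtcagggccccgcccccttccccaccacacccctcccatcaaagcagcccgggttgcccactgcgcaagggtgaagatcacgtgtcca
Ccnb1, chr13:100786571-100786736, minus strand: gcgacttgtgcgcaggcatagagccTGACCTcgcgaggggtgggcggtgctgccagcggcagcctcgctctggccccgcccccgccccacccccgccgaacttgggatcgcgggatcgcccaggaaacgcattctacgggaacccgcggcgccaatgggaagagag
In Ccnd3 the octamer lies 97 to 90 bases before the start and reads on the opposite strand, so its reverse complement is in capitals. In Cdk4 the half-site lies 102 to 97 bases before the start on the strand of the gene. In Ccnb1 it lies 225 to 220 bases before the start on the opposite strand. A match of letters is a description of the window, not a binding site.

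Other elements known from cell-cycle promoters were searched in the same 7 windows, on both strands. The CCAAT box (CCAAT) was in 3 windows, those of Ccnb1, Cdk2 and the proximal start of Ccnd3, and in 33.9% of all windows. The GC box (GGGCGG) was in 6 windows and in 32.7% of all. Of 2 forms of the cell-cycle homology region, TTTAAA was in the windows of Ccnb1 and Ccne1 and in 12.1% of all, and TTTGAA was in none of the 7 and in 16.0% of all. The cAMP response element TGACGTCA (1.55% of all windows) and the E2F motifs TTTGGCGC (0.42%) and TTTCGCGC (0.26%) were in none of the 7. No match says only that these letters were not in these 250 bases.

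Total counts lay between 15019038 and 17574340 per library, so that 3 counts correspond to 0.171 to 0.200 CPM (the read count as a rate of the library's total), a limit that covers counting error only. The CPM values of genes and marker sums given below were in addition scaled between libraries (TMM). Nr4a1 itself was at 50660, 60093 and 68555 counts in the NR4A1 overexpression libraries and at 428, 510 and 463 in the vector controls, 135-fold higher (log2 fold change 7.07 ± 0.14 SE), which matches the labels. NR4A1 overexpression replicate 2 stood apart, with a score of 60.7 on the first principal component (44.2% of the variance) against -24.0 to 4.58 in the other 5 libraries. In that library the 6 smooth muscle markers summed to 321 CPM against 1.49 to 2.72 elsewhere, the 8 endothelial markers to 109.7 CPM against 13.3 to 15.8, the 8 fibroblast markers to 1556 CPM against 918 to 1042, and the 6 immune markers to 5.42 CPM against 2.14 to 3.40. The fibroblast sum was mostly Dcn, with 14138 to 17269 counts in every library. Vector control replicate 1 was also above the other 4 libraries in Col1a2 (284 counts against 10 to 45, and 4504 in NR4A1 overexpression replicate 2) and Col3a1 (125 against 10 to 32, and 991). The same held for Col1a1 (303 against 84 to 124), Pdgfra (92 against 12 to 18), Thy1 (25 against 0 to 3) and Postn (43 against 0 to 7), but not for Dcn and Lum. Of the 10 lung epithelial markers, 6 to 8 per library reached 1 CPM and their sum was 762 to 1015 CPM. Nkx2-1 and Sftpc were at 946 counts or more in every library. Epcam had 2 to 22 counts and Cldn7 0 to 11, both highest in vector control replicate 1, and Cldn4 had 0 to 1. Krt18 had 164 counts in NR4A1 overexpression replicate 2 and 2 to 21 in the other 5 libraries. In bulk RNA, fewer cells of a type and less RNA per cell cannot be told apart.

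None of the 10 genes passed an adjusted p of 0.05 in edgeR's quasi-likelihood test, where 0.24% of the 12941 tested genes did, and none passed with at least a 2-fold change, where 0.17% did. The smallest adjusted p among the members was 0.50, that of Cdk6. With DESeq2, which called 1.13% of all tested genes, and with limma-voom, which called 0.278%, the number was again 0. At an unadjusted p under 0.05, 1 of the 10 was higher with NR4A1 (Cdk6; 4.02% of all tested genes) and 0 were lower (2.44% of all). The same gene was the 1 member whose libraries did not overlap between the groups (6.69% of all tested genes were separated with NR4A1 higher, 6.22% with NR4A1 lower). Fitted log2 fold changes were positive for 4 members and negative for 6, with a median of -0.06, against 0.01 over all tested genes. Without NR4A1 overexpression replicate 2, 0 members passed the adjusted threshold (0.275% of all tested genes) and 1, again Cdk6, was higher at an unadjusted p under 0.05 (4.78% of all).

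**Figure D1:**
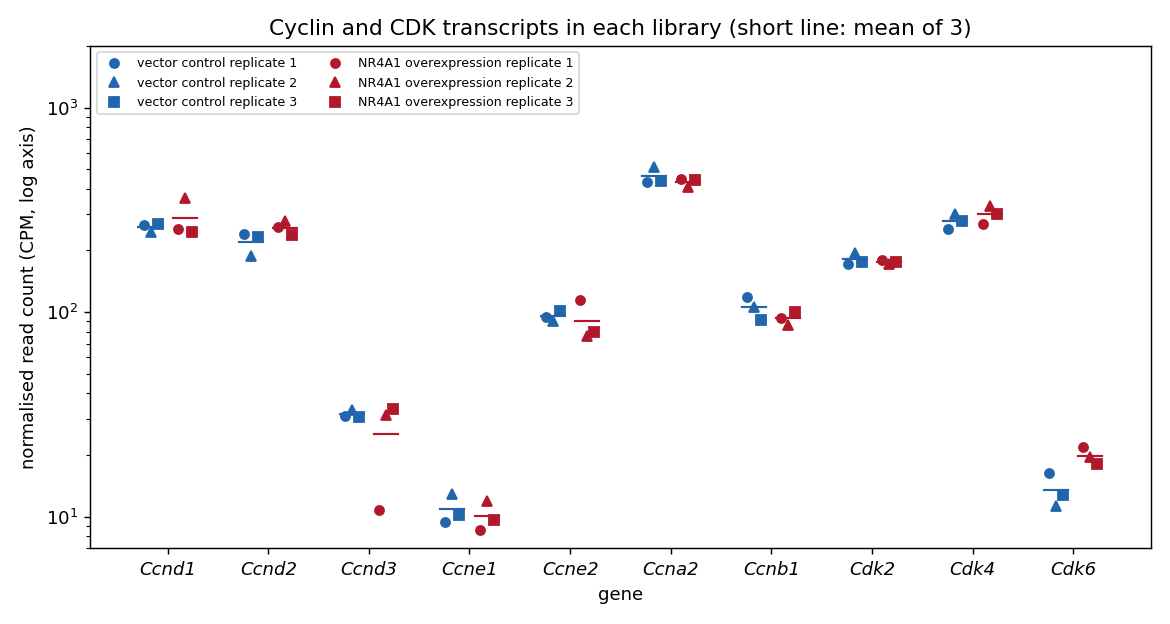
Normalised read count in CPM (log axis) of each member in the 3 vector control libraries (blue) and the 3 NR4A1 overexpression libraries (red), with the replicate given by the symbol and the mean of 3 by a short line. The groups overlap for every gene but Cdk6, and 1 NR4A1 overexpression library of Ccnd3 lies far below the other 5.

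Cyclin D1, the D-type cyclin most closely tied to growth factor signals, was measured on chromosome 7 (144929931 to 144939869, minus strand). Ccnd1 was at 255, 359 and 245 CPM in NR4A1 overexpression replicates 1, 2 and 3 and at 268, 247 and 269 CPM in the vector controls. Replicate 2 with NR4A1 was the highest of all 6, and the other 2 libraries of its group lay within or below the range of the controls. The fitted difference was 9.76% (log2 fold change 0.13 ± 0.15 SE, adjusted p = 0.93), with a 95% interval from -13.9% to 39.9%. Without NR4A1 overexpression replicate 2, the library with the high marker sums given above, the log2 fold change of Ccnd1 was -0.06 ± 0.08 SE (adjusted p = 0.81); the part of those other-cell markers in its value was not tested.

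Cyclin D2, encoded on chromosome 6 (127125162 to 127152193, minus strand), serves the same kinases as cyclin D1. Ccnd2 stood at 260.0, 279 and 237 CPM with NR4A1 and at 240.1, 188 and 232 CPM with the vector. The 2 highest libraries carried NR4A1 and the lowest was vector control replicate 2, but the third NR4A1 library was below vector control replicate 1. Its difference of 17.4% (95% interval -2.27% to 41.0%) came with a log2 fold change of 0.23 ± 0.11 SE and an adjusted p of 0.81.

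Cyclin D3, encoded on chromosome 17 (47505051 to 47599691, plus strand), is the D-type cyclin best known from lymphoid and differentiating cells, and it is the gene with the octamer printed above. Ccnd3 was at 10.8, 31.5 and 33.7 CPM with NR4A1 and at 31.2, 33.1 and 30.6 CPM with the vector. A single library, NR4A1 overexpression replicate 1, was low, with 160 counts where the other 5 had 528 to 584, and the 5 lay close together. Of 10622 genes with a mean of at least 5 CPM, Ccnd3 was 1 of 4 that in this library fell below 0.5 times the lowest of the others. The log2 fold change over all libraries was -0.32 ± 0.37 SE (adjusted p = 0.94), and without that library it was 0.04 ± 0.08 SE (adjusted p = 0.98).

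Taken as FPKM, which is scaled to a gene length chosen by the authors and described further on, the D-type cyclins summed to 81.1, 108.8 and 79.4 with NR4A1 and to 85.2, 76.8 and 84.9 with the vector. Ccnd1 made up 73.2% to 77.7% of that sum over the 6 libraries, Ccnd2 20.1% to 25.5% and Ccnd3 0.807% to 2.68%. The group means of the Ccnd1 share were 74.9% ± 2.46 (SD, n = 3) with NR4A1 and 75.9% ± 1.23 (SD, n = 3) with the vector, a difference smaller than the spread. The lowest Ccnd3 share, 0.807%, was that of NR4A1 overexpression replicate 1. These shares depend on the length used. With counts divided by the longest transcript, an alternative added after the data had been seen, the vector control means were 61.9% for Ccnd1, 30.8% for Ccnd2 and 7.31% for Ccnd3. As a share of counts, with no length in it, they were 51.0%, 42.8% and 6.21%, and in NR4A1 overexpression replicate 1 Ccnd2 (49.4%) was above Ccnd1 (48.5%).

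**Figure D2:**
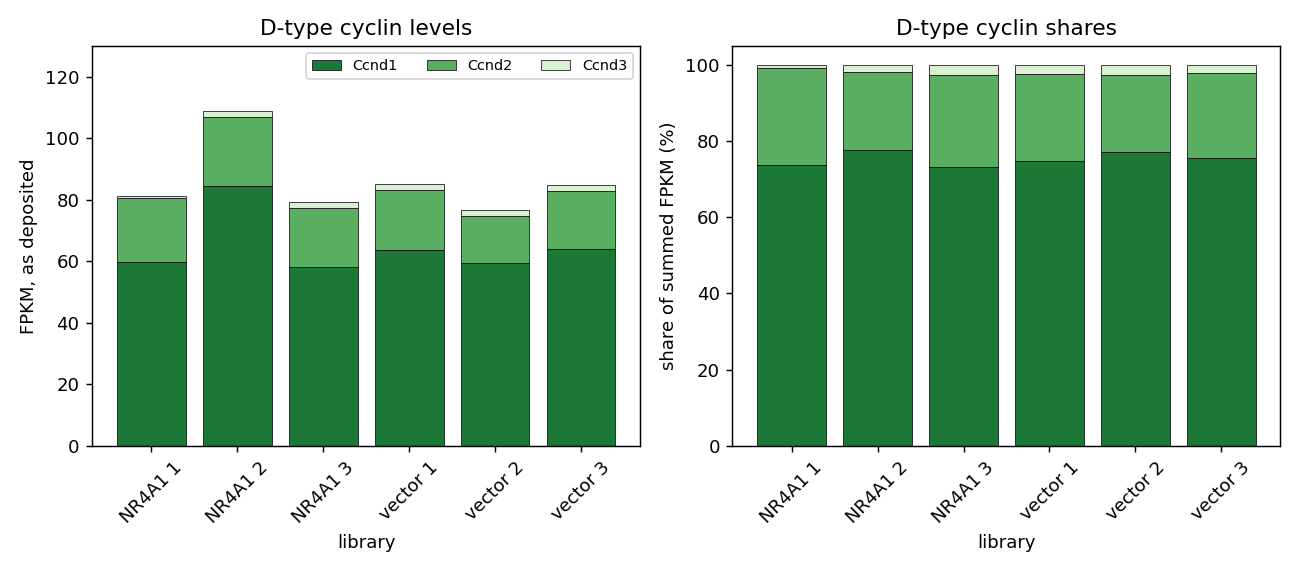
Stacked bars of the deposited FPKM of Ccnd1, Ccnd2 and Ccnd3 in each of the 6 libraries (left) and of their shares of the sum in percent (right). The sum of 108.8 in NR4A1 overexpression replicate 2 is the highest, and the Ccnd1 share lies between 73.2% and 77.7% in every library.

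Cdk4, a partner of all D-type cyclins, lies on chromosome 10 (127063534 to 127067920, plus strand). It was at 269, 332 and 303 CPM with NR4A1 and at 256, 301 and 278 CPM with the vector. The 2 groups interleaved, with replicate 1 the lowest and replicate 2 the highest in each. For Cdk4 this gave a log2 fold change of 0.11 ± 0.10 SE (adjusted p = 0.92), and the 95% interval of the difference ran from -8.37% to 27.9%.

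Cdk6, the second kinase of the D-type cyclins and the one more prominent in blood cells, lies on chromosome 5 (3341485 to 3531008, plus strand). It had 322, 328 and 313 counts with NR4A1 and 283, 188 and 224 counts with the vector, or 21.8, 19.5 and 18.1 CPM against 16.4, 11.2 and 12.7 CPM. All 3 NR4A1 libraries were above all 3 controls, although the lowest of the first was close to the highest of the second. The level was 47.3% higher (95% interval 13.6% to 91.1%, log2 fold change 0.56 ± 0.16 SE), and Cdk6 ranked 248 of the 12941 tested genes by p. The unadjusted p was 0.00956 and the adjusted p of 0.50 did not pass. Over the alternatives tried, the log2 fold change of Cdk6 lay between 0.27 and 0.73 and the adjusted p between 0.207 and 0.996, with an unadjusted p under 0.05 in each. The lowest log2 fold change was that of limma on log2(FPKM + 1), and with 0.1 added in place of 1 it was 0.50.

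In FPKM, Cdk6 was at 1.25, 1.13 and 1.05 with NR4A1 and at 0.959, 0.662 and 0.744 with the vector, and Cdk4 at 41.5, 51.5 and 47.4 against 40.2, 47.7 and 43.7. Cdk6 therefore made up 2.93%, 2.15% and 2.18% of the summed Cdk4 and Cdk6 level with NR4A1 and 2.33%, 1.37% and 1.68% with the vector. These shares overlapped, since vector control replicate 1 exceeded 2 of the 3 NR4A1 libraries. Divided by the longest transcript, the Cdk6 share in the vector controls was 0.865% in place of 1.79%.

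**Figure D3:**
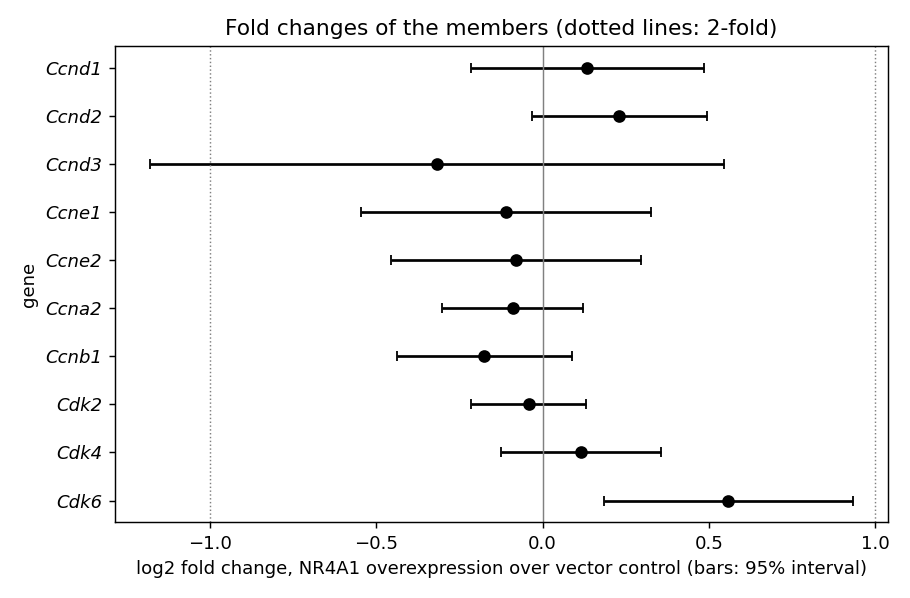
Log2 fold change of each member, NR4A1 overexpression over vector control, with its 95% interval as a bar and dotted lines at a 2-fold change in either direction. The interval of Cdk6, 0.18 to 0.93, lies above 0, the other 9 include 0, and that of Ccnd3, -1.18 to 0.55, is the widest.

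Cyclin E1 and cyclin E2 activate Cdk2 at the entry into S phase. Ccne1 (chromosome 7, 38097984 to 38107534, minus strand) was at 8.59, 11.9 and 9.59 CPM with NR4A1 and at 9.43, 12.9 and 10.1 CPM with the vector. In both groups replicate 2 was the highest, and the groups overlapped. Its log2 fold change was -0.11 ± 0.19 SE (adjusted p = 0.96), from 127 to 217 counts per library.

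Ccne2 (chromosome 4, 11191351 to 11204779, plus strand) was at 114.9, 76.5 and 79.6 CPM with NR4A1 and at 94.8, 90.8 and 100.9 CPM with the vector. The NR4A1 libraries lay on both sides of the controls, replicate 1 above all of them and replicates 2 and 3 below all of them. The log2 fold change was -0.08 ± 0.16 SE (adjusted p = 0.97); without NR4A1 overexpression replicate 1 it was -0.29, with an unadjusted p under 0.05 and an adjusted p of 0.66. Ccne2 held 75.6% to 86.6% of the summed E-type FPKM in the 6 libraries, with group means of 80.7% ± 5.53 (SD, n = 3) with NR4A1 and 81.0% ± 3.26 (SD, n = 3) with the vector. As a share of counts, with no length in it, Ccne2 held 86.5% to 93.0%.

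Cdk2, the kinase of the E- and A-type cyclins, lies on chromosome 10 (128697939 to 128705051, minus strand). It was at 180.0, 172 and 175 CPM with NR4A1 and at 172, 194 and 176 CPM with the vector. On the log2 CPM scale its range of 0.18 was the narrowest of the 10 genes. Vector control replicate 2 was the highest and the other 5 libraries lay together. The log2 fold change was -0.04 ± 0.07 SE (adjusted p = 0.96), and the 95% interval of the difference, -13.9% to 9.52%, was the narrowest of the set.

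Cyclin A2, which activates Cdk2 in S phase and Cdk1 in G2, lies on chromosome 3 (36564865 to 36572150, minus strand). Ccna2 was at 448, 407 and 442 CPM with NR4A1 and at 433, 509 and 438 CPM with the vector. Vector control replicate 2 was the highest and NR4A1 overexpression replicate 2 the lowest, with the other 4 libraries between 433 and 448 CPM. Fitted over all libraries, Ccna2 had a log2 fold change of -0.09 ± 0.09 SE (adjusted p = 0.92; 95% interval of the difference -18.8% to 8.70%).

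Cyclin B1, the mitotic cyclin, lies on chromosome 13 (100778650 to 100786570, minus strand). Ccnb1 was at 93.3, 86.0 and 100.6 CPM with NR4A1 and at 117.9, 106.3 and 91.8 CPM with the vector. Vector control replicates 1 and 2 were above all NR4A1 libraries, and vector control replicate 3 lay among them. Ccnb1 had a log2 fold change of -0.18 ± 0.11 SE (adjusted p = 0.86), a difference of -11.5% with a 95% interval from -26.2% to 6.30%. Of the 50-base stretches of its transcripts in GENCODE M21, 23.4% also occur on the same strand in other genes, the pseudogene Ccnb1-ps among them. This is a share of stretches and not of reads. The counts of Ccnb1 are therefore uncertain, to an extent that was not measured.

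**Figure D4:**
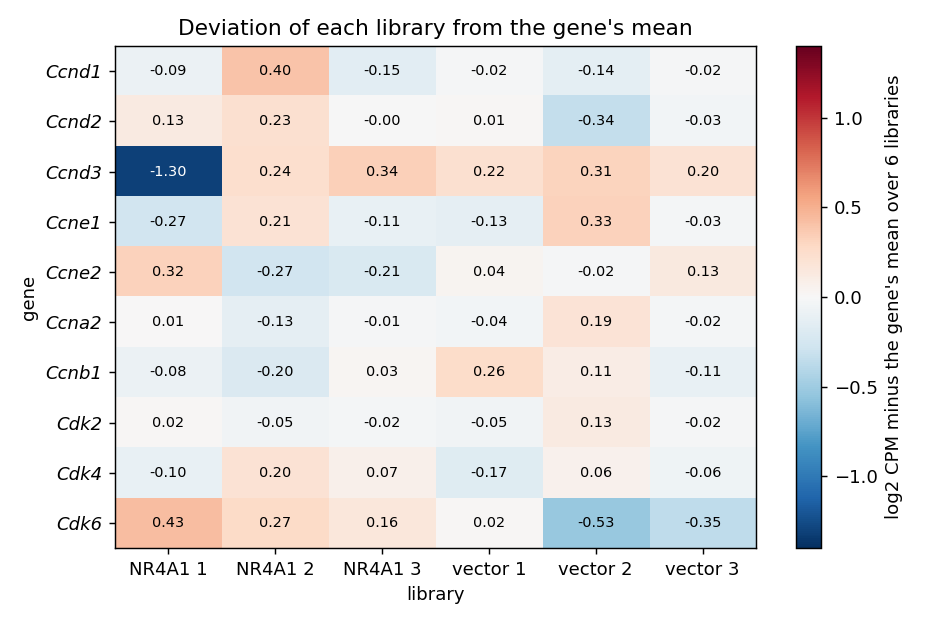
Log2 CPM of each member in each library minus the mean of that gene over the 6 libraries, as numbers and as colour (red above, blue below the mean). The value of -1.30 for Ccnd3 in NR4A1 overexpression replicate 1 is the lowest, and vector control replicate 2 is the library farthest from the mean for 5 of the 10 genes.

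On the log2 CPM scale, the range over the 6 libraries was 1.64 for Ccnd3, 0.95 for Cdk6, 0.32 for Ccna2 and 0.18 for Cdk2, and between 0.37 and 0.59 for the other 6 genes. Vector control replicate 2 was farthest from the mean for Ccnd2, Ccne1, Ccna2, Cdk2 and Cdk6. NR4A1 overexpression replicate 2 was farthest for Ccnd1 and Cdk4, NR4A1 overexpression replicate 1 for Ccnd3 and Ccne2, and vector control replicate 1 for Ccnb1. With the number 2 libraries of both groups left out, which was chosen after the data had been seen, Ccna2 and Cdk2 had log2 fold changes of 0.03 each and Ccnd1 of -0.10, so the signs of these small values turned.

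By the deposited FPKM, the level in the vector controls was 74.8 ± 5.20 (SD, n = 3) for Cdk2, 73.8 ± 7.16 for Ccna2, 62.4 ± 2.68 for Ccnd1 and 43.9 ± 3.75 for Cdk4. It was 17.9 ± 2.20 for Ccnd2, 13.2 ± 1.63 for Ccnb1 and 12.3 ± 0.63 for Ccne2. The lowest levels were 2.90 ± 0.51 for Ccne1, 1.96 ± 0.09 for Ccnd3 and 0.79 ± 0.15 for Cdk6. The ranges of Cdk2 and Ccna2 overlapped, as did those of Ccnb1 and Ccne2, and those of all other neighbours in this order did not. The order from Cdk2 to Cdk6 spanned 94.8-fold.

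That order depends on the gene length that the authors divided by. For 66.6% of 9060 genes, the length behind the FPKM was within 0.5% of the sum of all distinct exons of all transcripts in GENCODE M21, a sum that counts overlapping exons repeatedly. For Cdk4 it was 6385 bases, longer than the 4387 bases of the whole gene, and for Ccnd3 it was 16274 bases where the longest transcript has 3858. Cdk2 and Ccnd1 did not follow this rule, and both have another locus in GENCODE M21 than in the table. For Cdk2 the length was 2432 bases against a sum of 11932, and with that length it ranked first. Divided by the longest transcript of each gene instead, the vector control levels, again in FPKM, were 156 for Ccna2, 136 for Cdk4, 70.2 for Ccnd1 and 55.7 for Cdk2. On that scale they were 42.6 for Ccnb1, 35.0 for Ccnd2 and 32.0 for Ccne2, and 8.26 for Ccnd3, 5.46 for Ccne1 and 1.17 for Cdk6. Cdk6 was the lowest and Ccnd1 the highest D-type cyclin with every length tried, whereas Cdk2 moved from rank 1 to rank 4 and Cdk4 from rank 4 to rank 2. Fold changes between the groups do not depend on this length.

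The genes around the members were taken as 8 lists with 101 genes, of which 97 could be tested. None of the 97 passed the adjusted threshold with edgeR; 9 had an unadjusted p under 0.05 with NR4A1 higher (9.28% of the 97, against 4.02% of all tested genes) and 0 with NR4A1 lower (2.44% of all). With limma-voom the number that passed was 0 and with DESeq2 it was 2, or 2.06% of the 97 against 1.13% of all tested genes. Between the groups, 11 genes were separated with NR4A1 higher and 5 with NR4A1 lower, or 16.5% of the 97 against 12.9% of all tested genes. Ccna1, Ccnb3, Fosl1 and Spry4 were below the filter; of these, singled out after their values were seen, Fosl1 had 202 counts in NR4A1 overexpression replicate 2 and 0 to 7 in the other libraries, and Spry4 had 65 and 3 to 11.

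The 2 genes that passed with DESeq2 were Cdkn1a and Ccng1, both known as transcriptional targets of p53. The activity of p53 in these cells was not tested. Cdkn1a, which encodes the kinase inhibitor p21, had 643, 1788 and 826 counts with NR4A1 and 492, 496 and 486 with the vector. All 3 NR4A1 libraries were above all controls, and replicate 2 was far above the other 2. Its log2 fold change was 1.21 ± 0.33 SE (edgeR adjusted p = 0.46, DESeq2 adjusted p = 0.00726). Without replicate 2 it was 0.68 ± 0.09 SE (edgeR adjusted p = 0.0499), at the threshold.

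Ccng1, a cyclin that binds a phosphatase subunit rather than driving the cycle, had 2594, 4424 and 2562 counts with NR4A1 and 1819, 1596 and 1748 with the vector. Here too the groups were apart and replicate 2 was the highest. The log2 fold change was 0.97 ± 0.20 SE (edgeR adjusted p = 0.22, DESeq2 adjusted p = 2.62e-04), and without replicate 2 it was 0.69 ± 0.10 SE (edgeR adjusted p = 0.064). The part of the other-cell markers of that library in these values was not tested.

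Among the 15 tested of the other 17 cyclins, 8 had positive and 7 negative log2 fold changes, with a median of 0.03, and 1 was higher at an unadjusted p under 0.05 (Ccng1), a share to be read against 4.02% of all tested genes, as for the lists that follow. Ccnl2, a cyclin of RNA processing, was at -0.13 ± 0.07 SE, Ccno at 0.68 ± 0.38 SE from 10 to 30 counts, and Ccnb2, the close relative of Ccnb1, at -0.14 ± 0.08 SE. In CPM, 2 of the 15 were separated with NR4A1 lower, Ccnl2 and Ccnb2 (6.22% of all tested genes), and 2 with NR4A1 higher (6.69% of all). Of the 15 other cyclin-dependent kinases, 1 had an unadjusted p under 0.05, Cdk17 (0.23 ± 0.09 SE, adjusted p = 0.73). Cdk14 was at 0.23 ± 0.12 SE and Cdk1, the partner of cyclin B1, at -0.10 ± 0.08 SE with overlapping groups.

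The list of activators and subunits also holds the inhibitory kinases Wee1 and Pkmyt1. Of its 9 genes, 0 had an unadjusted p under 0.05. Pkmyt1, an inhibitory kinase of Cdk1, was at -0.25 ± 0.12 SE, Cdc25a, a phosphatase that activates Cdk2, at 0.10 ± 0.08 SE and Cdc37, a chaperone partner of Cdk4, at -0.07 ± 0.08 SE. Of the 10 inhibitors and pocket proteins, Cdkn1a alone had an unadjusted p under 0.05. Cdkn2d and Cdkn2a, which encode inhibitors of Cdk4 and Cdk6 (Cdkn2a also Arf), were at -0.16 ± 0.11 SE and -0.16 ± 0.13 SE.

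In the list of E2F, DREAM and FOXM1 transcription, 1 of 16 genes had an unadjusted p under 0.05, E2f5 (0.25 ± 0.09 SE, adjusted p = 0.68), and the list median was -0.05. Foxm1, an activator of mitotic genes such as Ccnb1, had 1739, 3372 and 3498 counts with NR4A1 and 4036, 3930 and 4156 with the vector. All NR4A1 libraries were below all controls, replicate 1 by the most, and the log2 fold change was -0.43 ± 0.20 SE (adjusted p = 0.78). Without replicate 1 it was -0.22 ± 0.06 SE (adjusted p = 0.66). Lin9, a DREAM subunit, was at -0.18 ± 0.12 SE.

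Of the 10 genes of cyclin destruction, 2 were higher at an unadjusted p under 0.05 (4.02% of all tested genes). They were Fbxw7, the ubiquitin ligase subunit that marks cyclin E (0.42 ± 0.15 SE, adjusted p = 0.68), and Skp2, the subunit that marks p27 (0.61 ± 0.24 SE, adjusted p = 0.73). Fbxo31, a subunit reported to mark cyclin D1, was at -0.16 ± 0.09 SE. Skp2 had 924, 912 and 952 counts with NR4A1 and 911, 431 and 607 with the vector, and vector control replicates 2 and 3 were low while vector control replicate 1 was close to the NR4A1 libraries.

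All 13 proliferation genes had negative log2 fold changes, with a median of -0.10 and a range from -0.19 to -0.00029, and 0 had an unadjusted p under 0.05. Of all tested genes 48.1% were negative, with a median of 0.01. The replication helicase subunits Mcm2 and Mcm5 were at -0.16 ± 0.07 SE (adjusted p = 0.77) and -0.18 ± 0.09 SE (adjusted p = 0.83), and the mitotic kinase Aurkb at -0.19 ± 0.08 SE (adjusted p = 0.78). Without NR4A1 overexpression replicate 2, 10 of the 13 were negative, with a median of -0.09, where 50.4% of all tested genes were negative. The genes were all read from the same 6 libraries, so their common sign is a description of those libraries.

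The list of mitogen-responsive genes upstream of cyclin D1 also holds negative feedback genes of ERK, such as Dusp6 and Spry2. Of its 9 tested genes, 8 were positive (51.9% of all tested genes), with a median of 0.15. At an unadjusted p under 0.05, 3 were higher (4.02% of all). These 3 were Dusp6, a phosphatase of ERK (0.36 ± 0.09 SE, adjusted p = 0.39), and the ETS factors Etv5 (0.30 ± 0.08 SE, adjusted p = 0.40) and Etv4 (0.35 ± 0.14 SE, adjusted p = 0.75). Without NR4A1 overexpression replicate 2, 7 of the 9 were positive, where 49.6% of all tested genes were positive. The median was then 0.05, and Dusp6, Etv5 and Etv4 were at 0.29, 0.30 and 0.26.

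**Figure D5:**
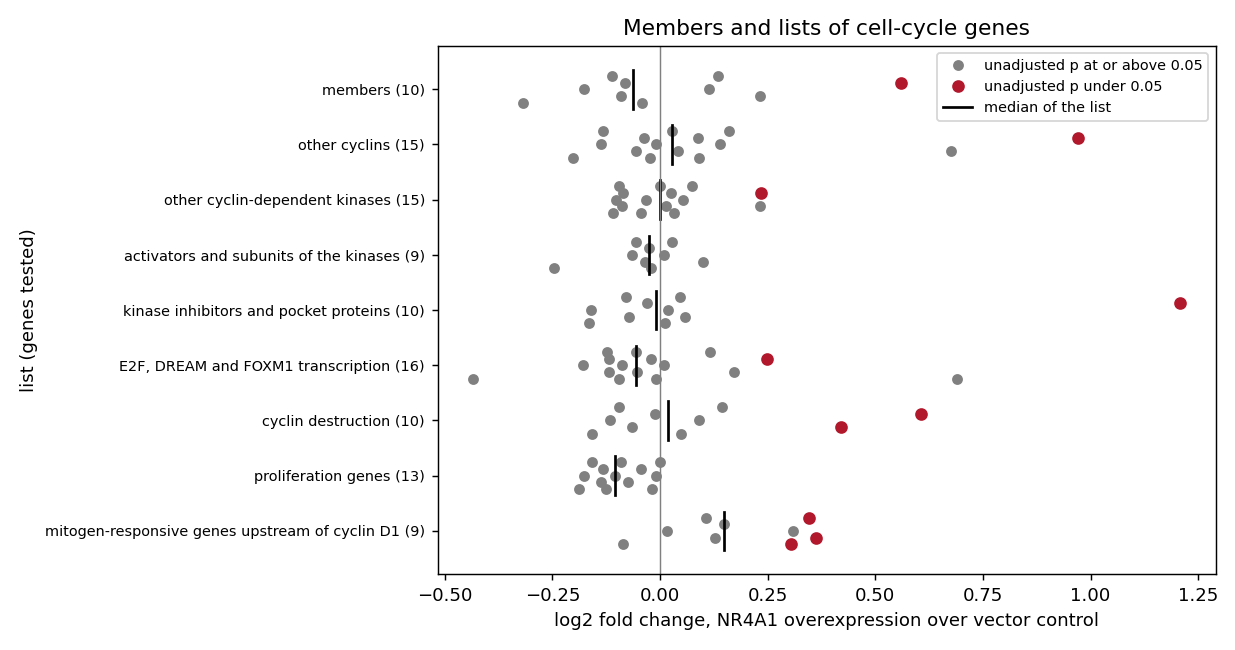
Log2 fold change, NR4A1 overexpression over vector control, of the 10 members and of the 97 tested genes of 8 lists, with red points for an unadjusted p under 0.05 and a black line at each list's median. The 9 red points of the lists all lie above 0, the 13 proliferation genes all lie below it, and Cdkn1a at 1.21 is the farthest point.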

How the data were processed

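Read counts per gene and FPKM values of 6 strand-specific libraries were used as the authors deposited them. Per the submitters' processing notes, HISAT2 2.0.4 and GRCm38.p4 were used; the counting program and its annotation are not given in the sources used here, nor is whether counting used strand. Ccnd1, Ccne2, Ccna2 and Cdk4 share over 10% of their 50-base stretches with a gene on the opposite strand. The labels name mRNA isolation, whereas the methods name a total RNA kit. FPKM was scaled by the authors to total counts and a gene length. Counts were filtered (filterByExpr), scaled (TMM) and compared between groups with edgeR 4.0.16 (R 4.3.3), by the quasi-likelihood test with Benjamini-Hochberg adjustment over 12941 genes. CPM values carry the TMM factors. Intervals come from the F statistic. limma 3.58.1 and DESeq2 1.42.0 served as alternatives. The scripts were tested on simulated data. No libraries of a group agreed within counting error (chi-square per degree of freedom 9.36 to 41.8).

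The members and lists were chosen with earlier results of these data known. Named were all members, Nr4a1, Cdk1, Ccnb2 and Cdkn1a, and of each list the genes past the adjusted threshold or, failing these, the 3 with the smallest unadjusted p; the 4 list genes below the filter were added after their values were seen. Sequences and motifs came from RefSeq (GRCm38.p6), transcripts from GENCODE M21, read with Python 3.11.15.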

Additional observations from a re-analysis of the deposited data

How the results depend on the processing

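With each of the 16 alternatives, 0 of the 10 members passed the adjusted threshold. Of 160 member values, 152 kept their direction and 8 turned. With 1 library left out at a time, the log2 fold change lay between -0.0614 and 0.226 for Ccnd1, -0.590 and 0.0421 for Ccnd3, -0.253 and 0.0355 for Ccne1, -0.292 and 0.0245 for Ccne2, and -0.0756 and 0.0124 for Cdk2. It lay between 0.130 and 0.297 for Ccnd2, lowest without vector control replicate 2, -0.133 and -0.0114 for Ccna2, nearest 0 without the same library, -0.266 and -0.0874 for Ccnb1, nearest 0 without vector control replicate 1, 0.0395 and 0.189 for Cdk4, lowest without NR4A1 overexpression replicate 2, and 0.445 and 0.726 for Cdk6. The sign turned without NR4A1 overexpression replicate 2 for Ccnd1 (-0.0614) and Ccne2 (0.0245), without NR4A1 overexpression replicate 1 for Ccnd3 (0.0421), and without vector control replicate 2 for Ccne1 (0.0355) and Cdk2 (0.0124). With both number 2 libraries left out, a setting chosen after the data had been seen, it was -0.0994 for Ccnd1, 0.0302 for Ccna2 and 0.0286 for Cdk2. In all these alternatives the change is in the samples used. The median over the members lay between -0.09 and 0.02.

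As shares of counts in place of FPKM, the vector control means were 51.0% for Ccnd1, 42.8% for Ccnd2 and 6.21% for Ccnd3 of the D-type cyclins, and, added after seeing the data, 4.66% for Cdk6 of Cdk4 and Cdk6. By the longest transcript, added likewise, they were 61.9%, 30.8%, 7.31% and 0.865%. By the longest transcript 3 of the 10 members kept their rank of level, and by the union of exons, also added, 5 did. Over all tested genes, edgeR called 30 higher and 1 lower, DESeq2 121 and 25, limma on log2(FPKM + 1) 9 and 0, limma on log2(FPKM + 0.1) 12 and 0, no count filter 24 and 0, a mean of at least 10 counts 11 and 0, and the number 2 libraries left out 27 and 8. With 1 library left out, higher calls lay between 3 and 32 and lower calls between 0 and 4, the 3 being without NR4A1 overexpression replicate 1 or 3.

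With the replicate block, 0 members passed, Cdk6 had a log2 fold change of 0.57 (adjusted p = 0.31), the member median was -0.06, and 5 genes were called higher and 0 lower over all genes. Same-numbered libraries of the 2 groups correlated at 0.01, -0.08 and 0.27 in their deviations. With 3 libraries a group, these correlations cannot decide whether the libraries were pairs. No pairing is stated, so the main fit left them unpaired. With the block, Cdk4 had a log2 fold change of 0.11 ± 0.05 SE (edgeR adjusted p = 0.55), where the SE without it was 0.10. Ccne1 was at -0.11 ± 0.12 SE (edgeR adjusted p = 0.79) against an SE of 0.19. The SE of Ccnd2 was 0.11 with and without the block. The chi-square per degree of freedom between libraries of a group, 9.36 to 41.8, puts their spread above counting error, so depth alone does not set the precision.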
